A study of Sus scrofa with 41 samples.

Results

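The comparison concerned 19 of the 41 boars of the series, all Danbred Landrace, and set the 7 pigs with the batch label 3 against the 12 pigs with the batch label 2. The pigs were taken by their breed and batch labels, and they made up 19 of the 28 Landrace pigs. All 19 were uncastrated males, fed ad libitum to a common weight, and psoas major, a fillet muscle of the loin, was taken straight after slaughter and kept in RNAlater. The pigs carried no treatment and no engineered allele, and each library came from a separate animal. The labels do not say what a batch is. The study states that the days of slaughter differed and affected the conditions of collection, and that batch was used to correct for this. The hour of slaughter, the handling before it and the weather are not given in the sources used here, so the batch, the days of slaughter and what came with them cannot be told apart. The other boars of the series were 13 Danbred Duroc and the remaining Landrace pigs, and of these batch 5 of Landrace and batches 2 and 3 of Duroc are compared below. All 28 Landrace pigs entered the fit behind the batch 5 values, and all 41 boars entered the scaling of expression levels.

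Skeletal muscle makes its ATP by glycolysis in the cytosol and by oxidative phosphorylation in mitochondria, where the respiratory chain passes electrons from NADH and succinate to oxygen and ATP synthase uses the resulting proton gradient. Muscle also holds a circadian clock, in which CLOCK and BMAL1 drive the PER, CRY and NR1D genes that repress them, so the level of these transcripts depends on the hour. Exercise, handling and adrenaline induce immediate-early genes such as FOS, EGR1 and NR4A1 within minutes, heat induces chaperones, and cortisol induces genes such as FKBP5 and PER1.

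The pigs of batch 3 were older. Their age at sampling was 155 to 166 days with a median of 157 days (mean 159 ± 4.02 days, SD, n = 7), against 147 to 159 days with a median of 149.5 days in batch 2 (mean 151 ± 3.59 days, SD, n = 12; exact permutation test, two-sided, p = 0.00119, adjusted p = 0.00714 over 6 measures). The ages overlapped between 155 and 159 days. RNA integrity number (RIN), feed conversion ratio and the library measures did not differ beyond the spread between pigs (exact permutation tests, adjusted p from 0.358 to 0.959). RIN was 7.7 to 8.3 in batch 3 and 6.5 to 8.3 in batch 2, where a single pig, replicate 1, had the value of 6.5. The counts on genes were 24553020 to 25724475 per pig in batch 3 and 23876645 to 25954816 in batch 2. The summed level of the fast fibre markers, 9 tested of 13 listed, was between 26490 and 71516 CPM (counts scaled by library size and TMM factor). The slow fibre markers, 7 tested of 11 listed, reached 4528 to 18326 CPM in batch 3 and 1520 to 11137 CPM in batch 2. Since both lists are incomplete, these sums give no ratio of fibre types. Replicate 4 of batch 3 stood apart with the highest slow fibre sum and the lowest fast fibre sum of the 19 pigs.

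Of 12150 genes tested with the quasi-likelihood test of edgeR, with RIN in the model, 92 differed between the batches at a Benjamini-Hochberg adjusted p (FDR) under 0.1, which was 0.757% of the genes tested. A larger number, 74 genes (0.609%), rose in batch 3, and 18 genes (0.148%) fell. No gene had an FDR under 0.05, the lowest FDR being 0.0587, while 1584 genes had an unadjusted p under 0.05, 7.70% of all genes higher and 5.34% lower in batch 3. The differences were small for most genes, with a median log2 difference of 0.40 among those that rose and of 0.57, in size, among those that fell, and the median over all genes was 0.00. For 56 of the 74 genes that rose, all 7 pigs of batch 3 lay above the median of batch 2, and for all 18 that fell the 7 pigs lay below it. The genes were called in these same pigs, so such positions follow in part from the selection and are no separate support. The ranges of the batches overlapped for each of the 92 genes. The number of calls rested on single pigs, on the terms of the model and on the scaling. It was 0 without replicate 1 or 3 of batch 3 or without replicate 3, 4, 6 or 11 of batch 2 (1332 to 1504 genes at p under 0.05), 2, 4 and 7 without replicates 10, 5 and 8 of batch 2, 40 and 41 without replicates 4 and 6 of batch 3, 52 without replicate 2 of batch 2, and 153 and 328 without replicate 12 of batch 2 and replicate 5 of batch 3. It was also 0, the respiratory chain genes below included, when RIN was left out of the model, when age was added or when libraries were scaled by size only (1153, 2201 and 1197 genes at p under 0.05). It was 26 when the pig of RIN 6.5 was left out, and 185 when this pig and the RIN term were both left out, of which 89 were among the 92. DESeq2 called 435 genes, with 88 of the 92 among them, and limma called 63.

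Among the genes that rose with the smallest p was MIEF2, a mitochondrial outer membrane protein that recruits the fission factor DRP1 (chr12:60461373-60475695, Sscrofa11.1). It lay at 17.5 CPM in the lowest, 23.0 in the median and 42.4 in the highest pig of batch 2, and at 26.2, 34.1 and 39.2 CPM in batch 3. All 7 pigs of batch 3 were above the median of batch 2, but the highest pig of batch 2, the one of RIN 6.5, exceeded them all. The log2 difference was 0.50 (SE 0.0860, FDR 0.0587), and its FDR was under 0.1 in 13 of the 19 fits that left out a pig. ALAS1, the rate-limiting enzyme of haem synthesis (chr13:34333263-34347435), went from 31.2, 44.8 and 72.8 CPM in batch 2 to 51.8, 61.9 and 76.5 CPM in batch 3 (log2 difference 0.48, SE 0.0891, FDR 0.0587). Its lowest pig of batch 3 was above the median of batch 2. AFG3L2, a protease of the inner mitochondrial membrane, had a log2 difference of 0.32, COQ4, needed for ubiquinone synthesis, of 0.42, and TRAK1, an adaptor that links mitochondria to motor proteins, of 0.49, each with an FDR of 0.0587. The remaining genes among the 10 with a symbol that had the smallest p were the respiratory chain genes CYCS, SDHD and NDUFA8 described next, the transcriptional repressor ZNF503 (log2 difference 0.74) and TAF5L, a subunit of a histone acetyltransferase complex (0.31), both also with an FDR of 0.0587.

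**Figure D1:**
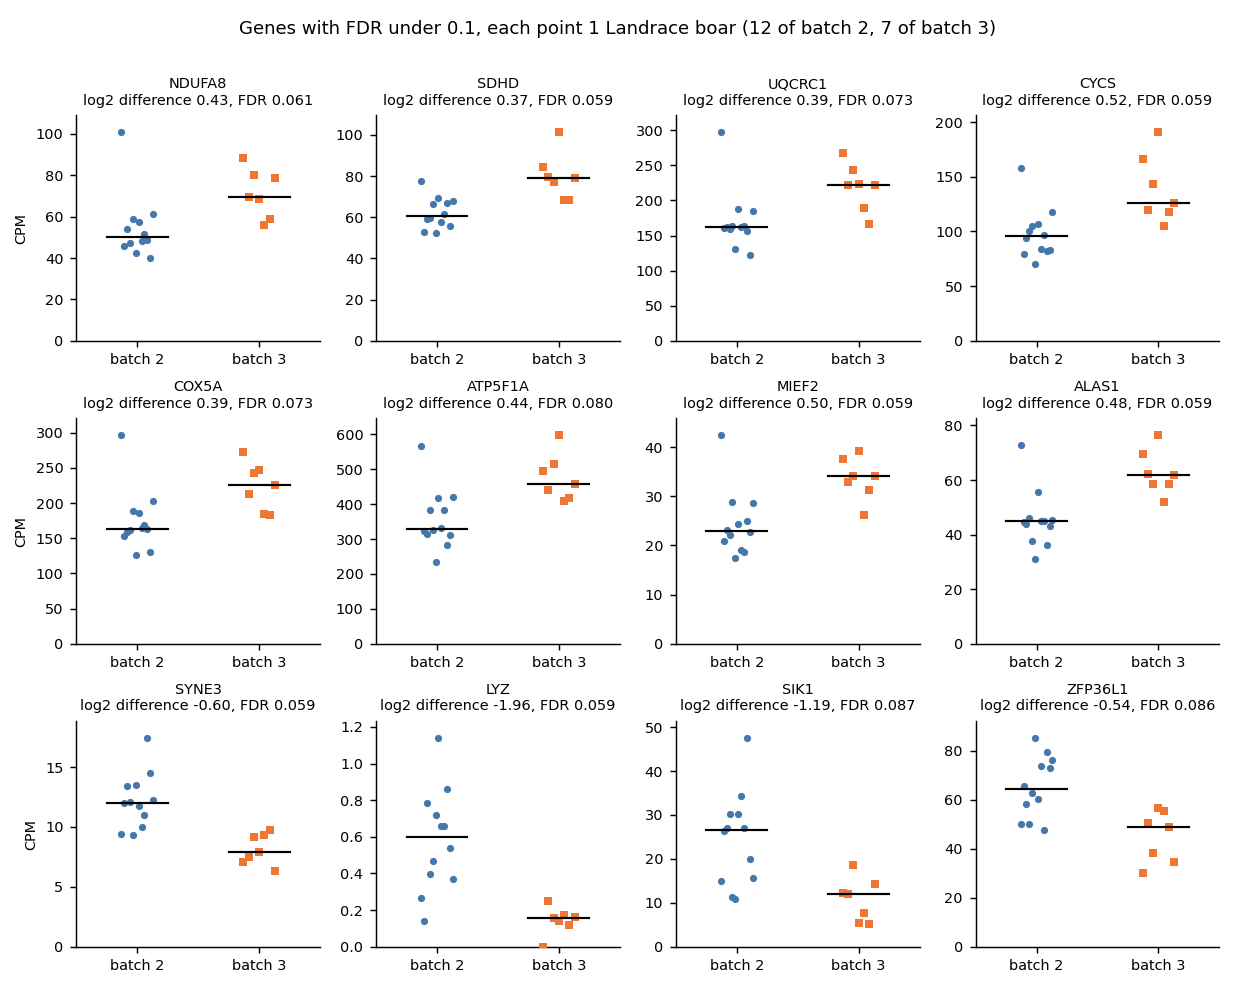
Expression in CPM (linear axes from 0) of 12 genes with an FDR under 0.1, with 1 point per Landrace boar, 12 circles for batch 2 and 7 squares for batch 3, and black bars at the medians. In the 8 genes that rose, the high circle apart from the rest is the pig of RIN 6.5, and in the 4 genes that fell all 7 squares lie below the batch 2 median.

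The nuclear-encoded subunits of the respiratory chain and ATP synthase rose together in part. Of 56 such genes tested, 15 had an FDR under 0.1, all higher in batch 3, against 0.757% of all genes, and 54 had a positive log2 difference, with a median of 0.32 against 0.00 over all genes. DESeq2 called 40 and limma 12 of the 56. CYCS, cytochrome c, which carries electrons to cytochrome c oxidase, was at 70.7, 95.5 and 158 CPM in the lowest, median and highest pig of batch 2 and at 105, 126 and 191 CPM in batch 3. Every pig of batch 3 exceeded the median of batch 2, and the ranges overlapped from 105 to 158 CPM. Its log2 difference was 0.52 (SE 0.0985, FDR 0.0587), and its FDR stayed under 0.1 in 10 of the 19 fits without a pig.

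Complex I, NADH ubiquinone oxidoreductase, is the entry point of electrons from NADH. All 26 of its tested subunits had a positive difference, 25 of them with an unadjusted p under 0.05 and 5 with an FDR under 0.1. Over all genes these shares on the higher side were 7.70% and 0.609%. The median of the 26 was 0.30. NDUFA8, an accessory subunit, rose by 0.43 from a median of 50.1 to 69.3 CPM, and NDUFS3, of the catalytic core, rose by 0.40 (FDR 0.0734). NDUFB5, of the membrane arm, rose by 0.35 (FDR 0.0734).

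In the list of cytochrome c, cytochrome c reductase and cytochrome c oxidase, 17 of 19 genes had a positive difference and 6 an FDR under 0.1. Of all genes 0.609% were called higher, and 7.70% were higher at an unadjusted p under 0.05. COX5A, a subunit of the oxidase that passes electrons to oxygen, rose by 0.39 from a median of 164 to 226 CPM, and its partner COX5B by 0.42 from 119 to 176 CPM (FDR 0.0734 for both). UQCRC1, a core protein of the reductase, rose by 0.39 (FDR 0.0734), and UQCRFS1, its iron-sulfur protein, by 0.42 (FDR 0.0797, named after its values were seen). Of ATP synthase, all 11 tested genes were higher with an unadjusted p under 0.05, and 4 passed the FDR. These were ATP5F1A, the alpha subunit of the catalytic head (234, 329 and 567 CPM in batch 2 against 409, 459 and 598 CPM in batch 3, log2 difference 0.44), ATP5MC1 and ATP5MC3, copies of the rotating c ring (0.50 and 0.57), and ATP5PF of the stalk (0.35), with FDR values of 0.0734 to 0.0860. In 41 of the 56 genes the highest pig of batch 2 exceeded the highest of batch 3, and replicate 1 of batch 2, the pig of RIN 6.5, held the highest value of its batch in 54.

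The summed level of the 56 genes ranged from 4720 to 6906 CPM in batch 3 (median 6116) and from 3427 to 8224 CPM in batch 2 (median 4568). Without the pig of RIN 6.5 the batch 2 range ended at 5292 CPM, so 5 pigs of batch 3 were above all the others of batch 2. The median log2 difference of the 56 genes was 0.31 without that pig, with 5 calls, and 0.38 when RIN was left out as well, with 21 calls. Over the 19 fits that left out a pig the median lay between 0.26 and 0.35 and at least 54 of the 56 differences were positive, and with library size in place of TMM factors it was 0.27. These fits share most of their pigs, and 1 pig held the highest value of batch 2 in 54 of the 56 genes, so the genes are not independent. The steadier direction and median are therefore no separate support, and several of these fits called no gene.

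The genes around the respiratory chain followed in part. Of 25 enzymes of the tricarboxylic acid cycle, which supplies its NADH and succinate, 23 had a positive difference and 20 an unadjusted p under 0.05 on the higher side, against 7.70% of all genes, with a median of 0.28. The 4 with an FDR under 0.1, against 0.609% of all genes called higher, were SDHD and SDHA, subunits of succinate dehydrogenase (log2 differences 0.37 and 0.33), SUCLA2, of succinyl-CoA ligase (0.39), and DLAT, of pyruvate dehydrogenase (0.29). SDHD was at 52.2, 60.5 and 77.4 CPM in batch 2 and 68.4, 79.2 and 101 CPM in batch 3, with all 7 pigs above the batch 2 median. Mitochondrial ribosomal proteins, which translate the mitochondrial genome, had a median of 0.16 over 59 genes, 57 of them positive, and 1 call, MRPL46 (0.36, FDR 0.0797). The 13 subunits encoded by the mitochondrial genome itself were all positive with a median of 0.22, but none had an FDR under 0.1 with edgeR or DESeq2, and 1 had an unadjusted p under 0.05. Their summed level was 99465 to 209304 CPM in batch 3 and 84856 to 257774.5 CPM in batch 2, with the pig of RIN 6.5 at the top.

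PRDX3 and SOD2, which remove hydrogen peroxide and superoxide in the mitochondrial matrix, were the 2 calls among 23 antioxidant genes (log2 differences 0.30 and 0.39, FDR 0.0734 and 0.0860), where 0.609% of all genes were called higher. SOD2 was at 98.9, 114 and 133 CPM in batch 2 and at 118, 139 and 208 CPM in batch 3. Among the other called genes, named here after their values were seen, were SLC25A3, the mitochondrial phosphate carrier (0.38), SLC25A12, an aspartate-glutamate carrier (0.43), PPIF, cyclophilin D of the matrix (0.51), IMMT, an organiser of the cristae (0.30), COX10, a farnesyltransferase on the path to the haem A of cytochrome c oxidase (0.31), and GOT1, the cytosolic aspartate aminotransferase (0.63). Of the regulators of mitochondrial genes, PPARGC1A had a log2 difference of 0.36 (FDR 0.392), and ESRRA was the second gene with a symbol outside the threshold (0.58, FDR 0.106).

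**Figure D2:**
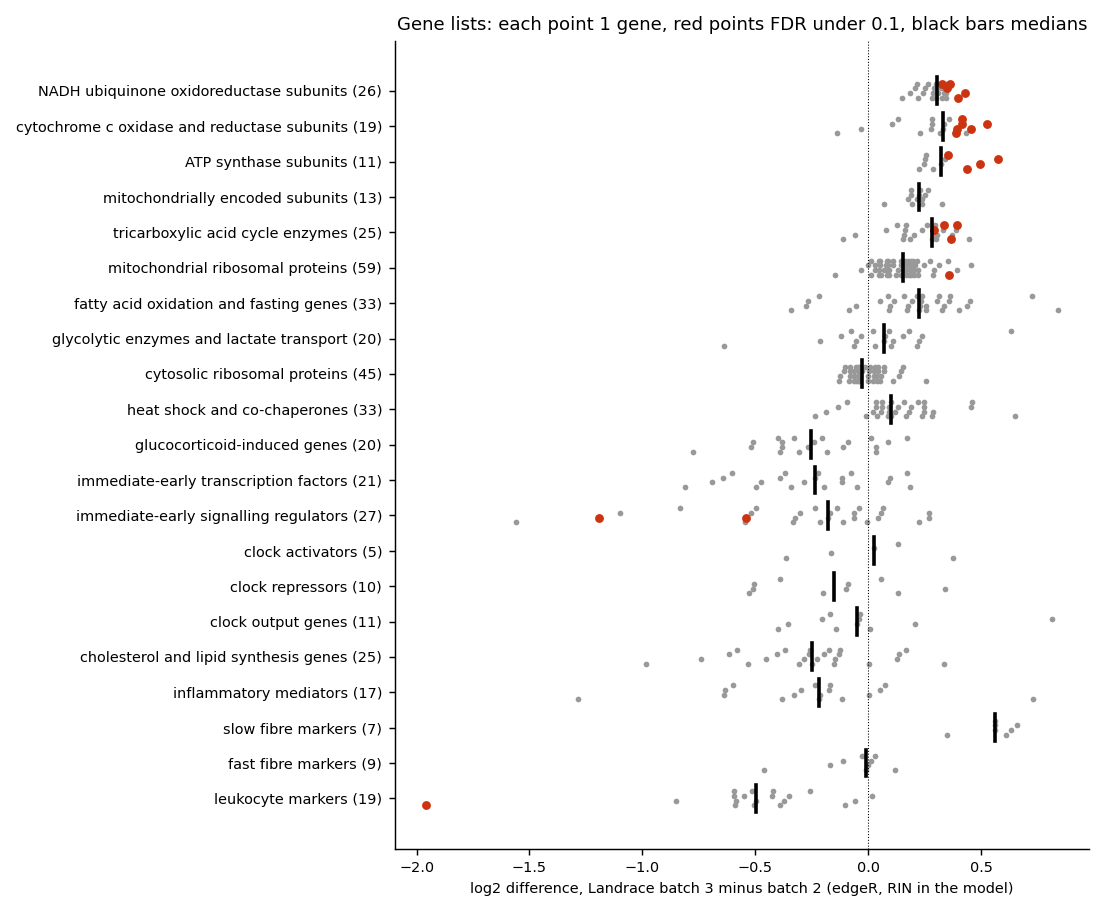
Log2 differences, batch 3 minus batch 2 in Landrace with RIN in the model, of the genes of 21 lists, with the number of genes tested in brackets, 1 point per gene, red where the FDR is under 0.1, and black bars at the medians. The 3 lists of nuclear-encoded subunits lie to the right of 0 almost without exception, with medians from 0.30 to 0.33, while glycolytic, cytosolic ribosomal and fast fibre genes scatter about 0 in this model without age and had medians of 0.18 to 0.28 with age added.

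Other metabolic groups had few calls or none. For scale, 7.70% of all genes were higher and 5.34% lower at an unadjusted p under 0.05. Of 33 genes of fatty acid oxidation and fasting, 11 were higher and 1 lower at an unadjusted p under 0.05, none had an FDR under 0.1 in edgeR (DESeq2 called 3), and the median was 0.22. FABP3, the muscle fatty acid binding protein, and HADH, an enzyme of beta-oxidation, chosen after their values were seen as the 2 with the smallest p, had log2 differences of 0.73 and 0.33 (FDR 0.155 and 0.139). The fasting genes PDK4 and UCP3 had 0.09 and -0.28 (FDR 0.922 and 0.759). Glycolytic enzymes (20 genes, median 0.07) and glycogen genes (24 genes, median 0.05) had no edgeR call, with 1 and 5 genes at an unadjusted p under 0.05, and 0 and 2 DESeq2 calls. The 19 genes of glucose uptake and insulin signalling had a median of -0.15 and no edgeR call (4 lower and 1 higher at an unadjusted p under 0.05, 1 DESeq2 call), and TXNIP, an inhibitor of glucose uptake, had -0.38 (FDR 0.431). Of 25 genes of cholesterol and lipid synthesis 20 had a negative difference, 7 of them with an unadjusted p under 0.05, but again none had an FDR under 0.1 (DESeq2 called 1 higher and 1 lower), and the median was -0.25. Cytosolic ribosomal proteins had a median of -0.03 over 45 genes, proteasome subunits of 0.08 over 33, and neither list held an edgeR or DESeq2 call, with 2 genes each at an unadjusted p under 0.05.

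The core clock held no call in edgeR. Of the 10 repressors of the clock tested, 3 were lower and 1 higher at an unadjusted p under 0.05, against 5.34% and 7.70% of all genes. PER1, which is induced by light, cortisol and cAMP (chr12:53361863-53376723), was closest to the threshold. It lay at 122, 149 and 248 CPM in the lowest, median and highest pig of batch 2 and at 78.2, 121 and 139 CPM in batch 3. All 7 pigs of batch 3 were below the batch 2 median, and the log2 difference was -0.51 (SE 0.132, FDR 0.107), with an FDR under 0.1 in 2 of the 19 fits without a pig and in DESeq2. PER2 lay the other way, at 5.32, 12.4 and 16.7 CPM against 10.5, 14.5 and 18.02 CPM (log2 difference 0.34, FDR 0.350). NR1D1 had -0.51 (FDR 0.605), which rested on replicate 10 of batch 2, at 16.6 CPM where the other pigs of that batch were at 2.05 to 6.02 CPM, and without it the difference was 0.0058. NR1D2, CRY1, CLOCK and NPAS2 had 0.06, 0.13, 0.02 and 0.13, with FDR values of 0.611 to 0.928, and BMAL1 had -0.36 (FDR 0.592). The BMAL1 difference was -0.07 with age in the model and lay between -0.58 and -0.22 without single pigs. DBP, an output gene of the clock, had 0.81 (FDR 0.162), with 3.32 to 17.8 CPM in batch 3 and 1.98 to 9.13 CPM in batch 2. Of 11 output genes 2 were higher and 1 lower at an unadjusted p under 0.05, and DESeq2 called 1. PER3 was not analysed here.

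Most immediate-early genes had a negative difference, and edgeR called 2 of them, both signalling regulators. SIK1, a salt-inducible kinase whose gene is a target of cAMP signalling (chr13:206454695-206465802), fell from 10.9, 26.6 and 47.5 CPM in batch 2 to 5.24, 12.1 and 18.7 CPM in batch 3. All 7 pigs of batch 3 were below the batch 2 median, and the ranges overlapped between 10.9 and 18.7 CPM. The log2 difference was -1.19 (SE 0.293, FDR 0.0874), and the call held in 3 of the 19 fits without a pig. ZFP36L1, which promotes the decay of short-lived mRNAs, fell from a median of 64.3 to 49.1 CPM (log2 difference -0.54, FDR 0.0860). These were the 2 calls among 27 signalling regulators, whose median was -0.18, where 0.148% of all genes were called lower.

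None of the 21 immediate-early transcription factors had an FDR under 0.1 in edgeR, and DESeq2 called 1 lower. At an unadjusted p under 0.05, 5 were lower, against 5.34% of all genes. The median was -0.24, with 17 of the 21 differences negative. Without single pigs the median ranged from -0.45 to -0.16, and with age in the model it was -0.13, with 9 of the 21 positive. FOS, the classic member, was at 5.83, 58.9 and 94.7 CPM in batch 2 and at 14.2, 22.4 and 136 CPM in batch 3. Its values spread widely in both batches, with 6 of 7 pigs of batch 3 below the batch 2 median and 1, replicate 7, above all others, and the log2 difference was -0.24 (FDR 0.870). It was -0.83 without replicate 7 and lay between -0.34 and -0.08 without any other single pig. JUN, EGR1 and MYC had -0.37, -0.64 and -0.60 (FDR 0.368, 0.566 and 0.295), and NR4A2, chosen after its values were seen for its p, had -0.47 (FDR 0.172). ATF3, NR4A1 and NR4A3 had 0.10, 0.19 and -0.05 with FDR values of 0.854 to 0.981. Adrenergic and cAMP response genes had SIK1 as their only call among 13, where 0.148% of all genes were called lower, and a median of -0.05.

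**Figure D3:**
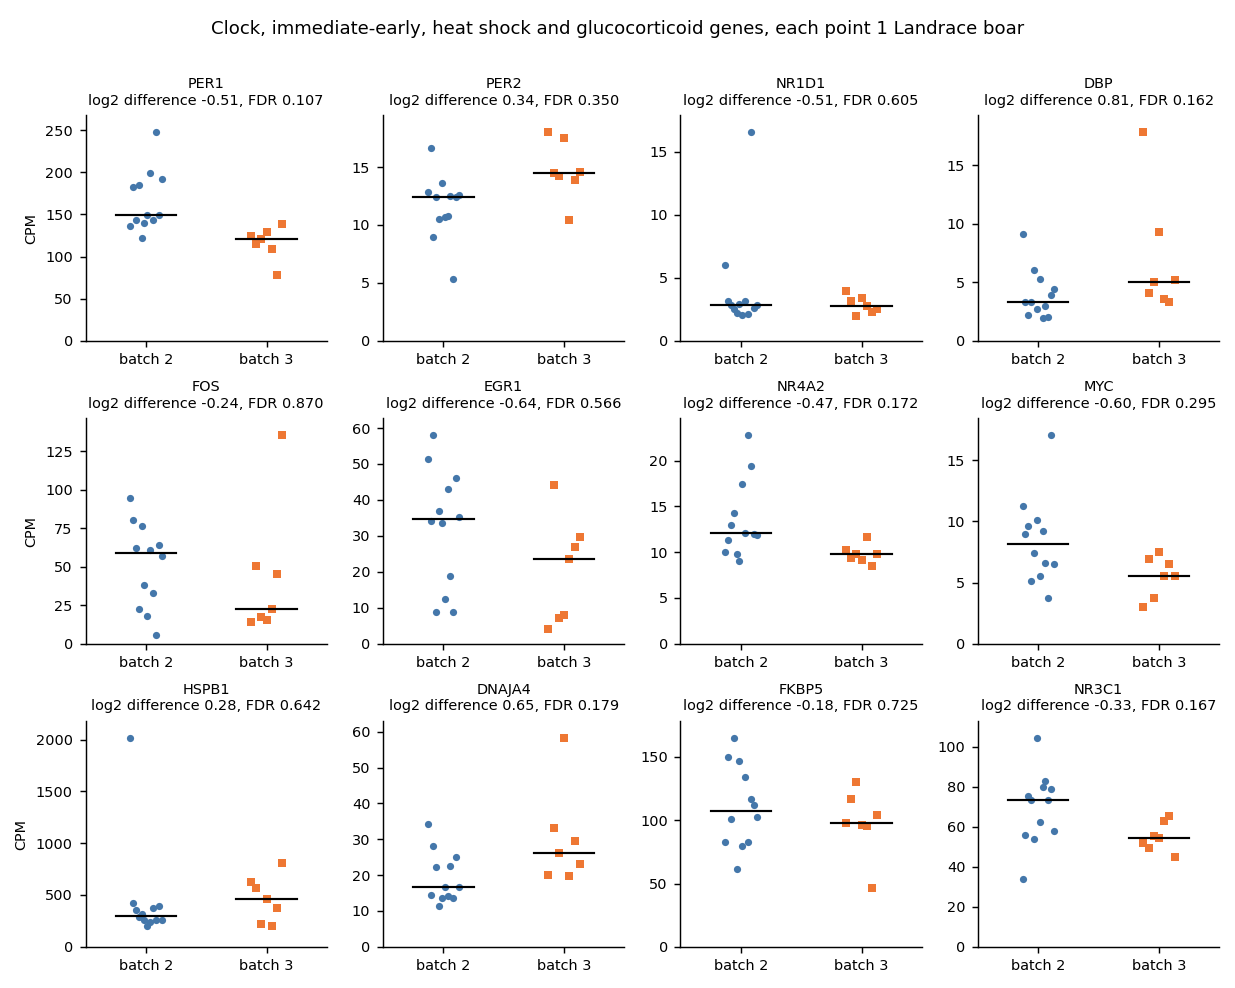
Expression in CPM (linear axes from 0) of 12 clock, immediate-early, heat shock and glucocorticoid genes, with 1 point per Landrace boar, 12 circles for batch 2 and 7 squares for batch 3, and black bars at the medians. None has an FDR under 0.1, the batches overlap in every panel, and single pigs set the highest values of NR1D1, DBP, FOS and HSPB1. For HSPB1 this is the pig of RIN 6.5.

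The heat shock, glucocorticoid and unfolded protein lists held no edgeR call. At an unadjusted p under 0.05, 7.70% of all genes were higher and 5.34% lower. Of 33 heat shock proteins and co-chaperones 28 had a positive difference, 5 of them with an unadjusted p under 0.05, the median was 0.10, and none had an FDR under 0.1 in edgeR, while DESeq2 called 2 as higher. HSPB1, a small heat shock protein, was at 202, 300 and 2016 CPM in batch 2 and 201, 466 and 806 CPM in batch 3 (log2 difference 0.28, FDR 0.642). The 2016 CPM belonged to the pig of RIN 6.5, and the other pigs of batch 2 were at 202 to 425 CPM. BAG3 and DNAJB1, co-chaperones of HSP70, had 0.16 and -0.24 (FDR 0.723 and 0.726), and DNAJA4 and HSPA9, named for their p after the values were seen, 0.65 and 0.18 (FDR 0.179 and 0.196). Of 20 glucocorticoid-induced genes 15 had a negative difference, 2 with an unadjusted p under 0.05, the median was -0.25, and edgeR called none and DESeq2 2 as lower. FKBP5, a co-chaperone of the glucocorticoid receptor, had -0.18 (FDR 0.725), and NR3C1, the receptor itself, -0.33 (FDR 0.167). The 24 genes of the unfolded protein and amino acid stress response had a median of -0.04, with 1 at an unadjusted p under 0.05 and no call by edgeR or DESeq2. HSPA1A, TSC22D3 and MT2A were not analysed here.

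A pair of immune genes fell in batch 3. LYZ, lysozyme of phagocytes (chr5:33612593-33618953), fell from 0.139, 0.600 and 1.14 CPM in batch 2 to 0, 0.155 and 0.248 CPM in batch 3, a log2 difference of -1.96 (SE 0.379, FDR 0.0587) that rested on 0 to 30 counts per pig. All 7 pigs of batch 3 were below the batch 2 median. CD180, a receptor of B cells and macrophages, fell by 1.57 on the log2 scale with 1 to 22 counts per pig (FDR 0.0734). Of 19 leukocyte markers tested 18 had a negative difference, 7 with an unadjusted p under 0.05, and LYZ was the only call. Over all genes 5.34% were lower and 7.70% higher at an unadjusted p under 0.05, and 0.148% were called lower. The median of the 19 was -0.50, ranging from -0.66 to -0.30 without single pigs. DESeq2 called none of the 19, and gave no adjusted p for LYZ or CD180. Their summed level was 150 to 354 CPM in batch 3 and 221 to 451 CPM in batch 2, and the pan-leukocyte marker PTPRC had a log2 difference of -0.59 (FDR 0.285). The part of leukocyte content in the other differences was not tested. In bulk tissue, fewer cells of a type and less RNA per cell cannot be told apart. Adipocyte markers (8 tested, summed level 63.1 to 107 CPM against 65.6 to 213 CPM) had a median of -0.56, which was -0.34 without the pig of RIN 6.5, with no call by edgeR or DESeq2 and 1 gene in each direction at an unadjusted p under 0.05. The inflammatory mediators (17 tested) had a median of -0.22, 3 at an unadjusted p under 0.05, all lower, and no edgeR call (DESeq2 2), and the interferon genes (28 tested) a median of -0.02 with 4 lower and 2 higher and no call by either tool. RFX5, a factor that binds MHC class II promoters, fell by 0.63 (FDR 0.0754).

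The other genes that fell with the smallest p came from several functions. SYNE3, nesprin-3 of the nuclear envelope (chr7:116666238-116770305), went from 9.35, 12.03 and 17.4 CPM in batch 2 to 6.32, 7.91 and 9.75 CPM in batch 3. Only the range of 9.35 to 9.75 CPM was shared by the batches. The log2 difference was -0.60 (SE 0.103, FDR 0.0587), and the call held in 13 of the 19 fits without a pig. MYO9A, an unconventional myosin, FBLIM1, a filamin-binding adaptor, and ELL2, an elongation factor of RNA polymerase II, fell by 0.47, 0.46 and 1.03 on the log2 scale (FDR 0.0655, 0.0754 and 0.0797). TMEM260, CTTNBP2NL, THSD7B, COMMD10 and TPX2, the last a spindle assembly factor, had log2 differences of -1.02 to -0.37 (FDR 0.0765 to 0.0860). PRDM16, a transcriptional regulator known from brown fat, was the only gene of the 12150 (0.00823%) whose batches did not overlap, at 0.528 to 1.17 CPM in batch 2 and 0.343 to 0.523 CPM in batch 3, but with 7 to 35 counts per pig its FDR was 0.135 (log2 difference -0.69).

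Several of the largest differences came with single pigs of high value. CSRP3, muscle LIM protein of the Z-disc (chr2:40219288-40240614), had a log2 difference of 2.01 (FDR 0.0945), with 5.76, 16.5 and 340 CPM in batch 2 and 12.2, 40.2 and 335 CPM in batch 3. The 340 CPM belonged to the pig of RIN 6.5 and the 335 CPM to replicate 4 of batch 3, and leaving out the one or the other gave a log2 difference of 2.23 and 1.33 with an FDR over 0.1. AGBL1, a carboxypeptidase that acts on tubulin, SNAI3, a zinc-finger repressor, and MLLT11 had log2 differences of 1.66, 1.12 and 1.06 (FDR 0.0848, 0.0848 and 0.0860). AGBL1 was at 11.5 CPM in replicates 4 and 6 of batch 3 and at 1.63 to 2.72 CPM in the other 5 pigs, within the 0.540 to 2.85 CPM of batch 2. The gene ENSSSCG00000031101, which has no symbol and was named after its value was seen, had the largest log2 difference of all called genes, 3.70, with 35.3 CPM in replicate 4 of batch 3 and 0.243 to 2.12 CPM in the other 6 pigs of that batch. Without replicate 4 the difference was 0.95 (FDR 0.338), and with age in the model it was 1.70.

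The slow fibre markers, genes of oxidative fibres rich in mitochondria, had positive differences. All 7 tested had a positive difference, 3 with an unadjusted p under 0.05, where 7.70% of all genes were higher. None passed the FDR in edgeR or DESeq2, and the median of the 7 was 0.56. TNNI1, slow troponin I, was at 167, 599 and 1861 CPM in batch 2 and at 548, 882 and 2399 CPM in batch 3, with the highest value in replicate 4. Without single pigs the median of the 7 markers ranged from 0.20 to 0.69. With age in the model it was 0.15, and in the pigs aged 153 to 160 days 0.09. The median of the 56 respiratory chain and ATP synthase genes was 0.31 and 0.28 in the same fits. The part of slow fibre content in the differences of any of these fits was not tested. The median of the 9 fast fibre markers was -0.01 in the model without age, 0.28 with age and 0.27 in the pigs aged 153 to 160 days.

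Age was compared in several ways, since the pigs of batch 3 were older by 7.69 days in the mean. With age in days added to the model no gene had an FDR under 0.1 for batch (0 with edgeR, 2201 with an unadjusted p under 0.05), and none had one for age either (0.00% of genes called, 1804 with an unadjusted p under 0.05), but DESeq2 called 190 genes for age. All 74 genes that rose and all 18 that fell kept their direction. They were called in these same pigs, so kept directions and similar medians follow in part from that selection. The median log2 difference of the 74 was 0.40 without age and 0.41 with it, and that of the 18 was -0.57 and -0.65. A narrower age range was taken as well, with the 5 pigs of batch 3 and the 5 of batch 2 aged 153 to 160 days. It lessened the age difference and did not remove it, since 4 of these 5 pigs of batch 2, at 153 to 154 days, were younger than every pig of batch 3, so age and batch cannot be told apart there either. In these 10 pigs the medians were 0.40 and -0.65, and again all 92 kept their direction, although the 10 genes then called shared only 2 with the 92. Because the 10 pigs are among those in which the 92 were called, this is no independent check. Other lists moved. With age the median of the 45 cytosolic ribosomal proteins went from -0.03 to 0.18, with 44 positive, and that of the 20 glycolytic genes from 0.07 to 0.23, nearer to the 0.31 of the 56 respiratory chain and ATP synthase genes. Medians also grew for the heat shock genes, from 0.10 to 0.23, the mitochondrial ribosomal proteins, from 0.16 to 0.29, and the proteasome subunits, from 0.08 to 0.22. The medians of the fatty acid oxidation genes, the immediate-early factors and the glucocorticoid-induced genes came nearer to 0, from 0.22 to 0.11, from -0.24 to -0.13 and from -0.25 to -0.16. The median of the 19 leukocyte markers went from -0.50 to -0.93, that of the 17 inflammatory mediators from -0.22 to -0.59, and that of all genes was 0.01. Markers of other cells moved the same way. Their medians went from -0.13 to -0.58 for fibroblasts, from -0.15 to -0.68 for smooth muscle and pericytes, and from 0.08 to -0.28 for endothelium. SIK1 had -0.81 with age in the model and -0.999 in these 10 pigs, and PER1 -0.51 and -0.55. NR1D1, NR1D2, NPAS2, FOS and NR4A3 changed sign in both, so no direction can be given for them. In these pigs the summed level of the 56 genes was 4720 to 6906 CPM in the 5 pigs of batch 3 and 3642 to 5292 CPM in the 5 of batch 2.

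**Figure D4:**
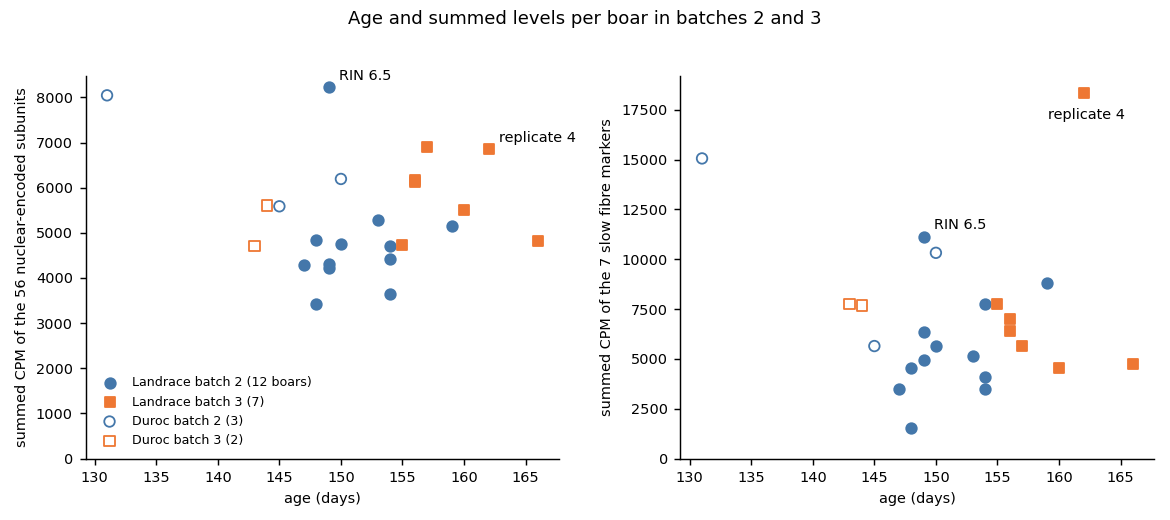
Age in days (horizontal axes) against the summed CPM of the 56 nuclear-encoded respiratory chain and ATP synthase genes (left) and of the 7 slow fibre markers (right), 1 point per boar, filled for Landrace and open for Duroc, circles for batch 2 and squares for batch 3. In Landrace the squares lie at 4720 to 6906 CPM on the left and most circles below 5292 CPM, with the pig of RIN 6.5 at 8224 CPM, and the Duroc batches overlap in both panels.

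The Duroc pigs of the same batches did not show the same pattern. Batch 2 held 3 of them and batch 3 held 2, aged 131 to 150 days and 143 to 144 days, so the ages of batch 3 lay within those of batch 2. No gene had an FDR under 0.1 between these batches in edgeR (0.00%, 490 genes at an unadjusted p under 0.05), and DESeq2 called 31. Of the 74 genes that rose in Landrace 10 had a positive difference in Duroc, with a median of -0.25, where 49.5% of all genes were positive. Of the 18 that fell 8 were negative in Duroc too. The share of all genes with the same sign in both breeds was 46.0%. Of the 56 nuclear-encoded respiratory chain and ATP synthase genes 54 were negative in Duroc, with a median of -0.32. That median lay between -0.47 and -0.14 when 1 of the 5 pigs was left out, and their summed level was 5587, 6193 and 8046 CPM in the 3 pigs of batch 2 against 5606 and 4706 CPM in batch 3. The highest of these was the youngest pig, at 131 days.

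The difference between the breeds was tested as a batch by breed term. It had an FDR under 0.1 for 11 genes (0.0905%), and among the 56 genes it had an unadjusted p under 0.05 for 42, against 9.60% of all genes, and a median of 0.59. COX5B was the member with an FDR under 0.1. Its level was 159, 156 and 211 CPM in the Duroc pigs of batch 2 and 136 and 91.4 CPM in those of batch 3, and the batch by breed term was 0.98 (FDR 0.0938). COQ4 had 0.96 at the same FDR, with Duroc values of 15.1, 16.1 and 12.3 CPM in batch 2 and of 11.7 and 8.03 CPM in batch 3. THSD7B, which fell in Landrace, was higher in the Duroc batch 3, and its term was -2.54 (FDR 0.0938) at 2 to 27 counts per Landrace pig. SIK1 had the same sign in both breeds, with -1.07 in Duroc, and a term of -0.07 (FDR 0.987), but 1 Duroc pig of batch 2 was at 71.1 CPM and the other 4 were at 12.3 to 19.6 CPM.

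**Figure D5:**
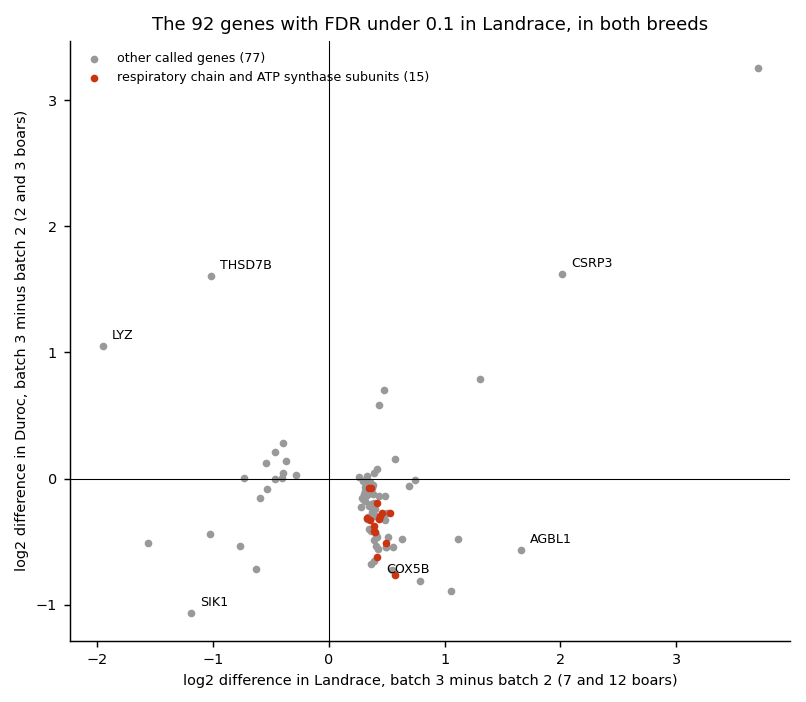
Log2 differences of the 92 genes with an FDR under 0.1 in Landrace, batch 3 minus batch 2, in Landrace (horizontal axis, 7 and 12 boars) and in Duroc (vertical axis, 2 and 3 boars), with the 15 respiratory chain and ATP synthase genes in red. Most genes that rose in Landrace, the red points included, lie below 0 in Duroc.

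The 7 Landrace pigs of batch 5, aged 154 to 160 days and with a RIN of 6.6 to 8.2, gave a further set of values. Batch 5 differed from batch 2 in 13.6% of the genes and from batch 3 in 4.07%. Both comparisons share pigs with the one above, so the values are set side by side only. The pig of RIN 6.6 had the highest summed level of the 56 respiratory chain and ATP synthase genes in batch 5, 9382 CPM against 5299 to 6543 CPM in the other 6. For the 74 genes that rose in batch 3 the median log2 difference of batch 5 was 0.16 from batch 2 and -0.26 from batch 3, and for the 18 that fell it was -0.24 and 0.33. The 56 respiratory chain and ATP synthase genes had 0.13 and -0.18. SIK1 in batch 5 was near batch 2 (-0.09) and above batch 3 (1.11), while LYZ was far below batch 2 (-2.45) and nearer to batch 3 (-0.49).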

How the data were processed

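PolyA read pairs were trimmed by the authors (Trimmomatic 0.39) and mapped by them with STAR 2.7.1a against Sscrofa11.1 and its Ensembl gene models. The deposited values are raw counts of read pairs per gene from STAR, and the unstranded column was read. Without strand, pairs on overlapping or antisense genes cannot be told apart, and genes with close copies are uncertain. A symbol was available for 14857 of 25880 genes, and coordinates were taken from RefSeq on Sscrofa11.1 by symbol (118 of 130 named genes). Pairs on no gene made up 7.53 to 11.2% of a library of the 19 pigs and stayed out of library sizes.

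Genes were kept with filterByExpr (minimum count 10, minimum total count 15) with batch as the group. The model of RIN and batch was fitted in edgeR 4.0.16 (R 4.3.3) with TMM factors and tested by quasi-likelihood in its legacy form, with adjusted p-values by Benjamini-Hochberg and a threshold of 0.1 as in the study. The model for Duroc held batch alone, and that for the batch by breed term held RIN. DESeq2 1.42.0 and limma 3.58.1 with voom were alternatives. CPM values are TMM-scaled over all 41 pigs and are not adjusted for RIN. Traits were compared with exact permutation tests in SciPy 1.17.1 (Python 3.11.15), and plots were drawn with matplotlib 3.10.9. To find a library deposited more than once, all 171 pairs of the 19 libraries were compared, and no pair agreed within counting noise (lowest chi-squared per degree of freedom 20.3). Counting error matters for genes with few counts.

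The pigs, gene lists and named genes were chosen with earlier results of these data known. Named were the 10 genes in each direction with the smallest p, the 5 with the largest difference at 1 CPM or more, up to 4 called members of each list, and 28 clock, stress and metabolic genes. Others are marked as chosen after their values were seen. Promoter motifs of the stress and clock genes were not analysed here. A gene that the naming rule takes is not reported here.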

Additional observations from a re-analysis of the deposited data

Results flagged for a closer look

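In 18 of the 134 groups of 7 values examined, the 7 pigs of batch 3 held a value set apart from the others by Dixon's criterion at the 95% level, which chance alone meets in about 1 in 20 groups. Replicate 4 held CSRP3 at 335 CPM (12.2 to 85.9 in the other pigs), TNNI1 at 2399 CPM (548 to 945), MYH7B at 50.5 CPM (8.90 to 18.8), GOT1 at 201 CPM (91.5 to 119), UQCRFS1 at 260 CPM (157 to 198), HADH at 189 CPM (112 to 144), DNAJA4 at 58.3 CPM (19.6 to 33.0), FITM2 at 35.1 CPM (25.9 to 29.0) and ENSSSCG00000031101 at 35.3 CPM (0.243 to 2.12). This pig also had the highest slow fibre sum, 18326 CPM, and the part of slow fibre content in these values was not tested. Replicate 1 held DBP at 17.8 CPM (3.32 to 9.30), NR2F6 at 45.3 CPM (23.9 to 33.1), CNKSR1 at 91.2 CPM (51.8 to 64.7), PIGQ at 42.6 CPM (24.3 to 30.4) and CSNK1D at 74.1 CPM (42.2 to 55.9). The immediate-early factor FOS was at 136 CPM in replicate 7 (14.2 to 50.7), the chemokine CXCL10 at 7.13 CPM in replicate 2 (0.730 to 1.55), FKBP5 at 46.8 CPM in replicate 6 (95.4 to 130) and KLHDC8B at 7.09 CPM in replicate 5 (8.62 to 9.76).

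The batch difference was unequal in the breeds for 3 named genes in a test of the batch by breed term (edgeR, FDR 0.0938 each). The term, Landrace minus Duroc, was 0.98 for COX5B and 0.96 for COQ4, both higher in Landrace batch 3 and with negative differences in Duroc, and -2.54 for THSD7B.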

How the results depend on the processing

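Leaving out each pig gave 0 to 328 genes for Landrace and 0 for Duroc. The 92 genes of the main model became 0 without RIN, with age, with age and FCR or with library size only, 435 with DESeq2, 250 without a filter on low counts, 10 in pigs of 153 to 160 days, and, in a fit chosen after seeing the data, 185 without RIN and the pig of RIN 6.5. They were 63 with limma, 95 with RLE factors, 83 with the filter over all pigs and 72 with all 28 Landrace pigs. DESeq2 gave 190 genes for age, 31 for Duroc and 177 for the batch by breed term, which had 4 with age added, and Duroc had 2 with RIN added. No named gene with an FDR under 0.1 changed direction in any fit of the Landrace batches, but these fits share pigs with the one that called the genes. Genes without a call reversed. With age added, with age and FCR, and in pigs of 153 to 160 days, NR1D1 had 0.27, 0.36 and 0.049, NR1D2 -0.034, -0.022 and -0.091, FOS 0.063, 0.27 and 0.20, and NR4A3 1.29, 1.43 and 0.19. NPAS2 had -0.035 with age and -0.079 in those pigs, and PDK4, BMAL1 and CIART had -0.15, 0.020 and 0.055 with age and FCR. CLOCK had -0.033 with library size only and -8.5e-05 without RIN and the pig of RIN 6.5. Without single pigs the ranges were -0.58 to 0.0058 for NR1D1, -0.00070 to 0.10 for NR1D2, -0.025 to 0.23 for NPAS2, -0.025 to 0.049 for CLOCK, -0.28 to 0.40 for ATF3, -0.11 to 0.33 for NR4A1, -0.83 to -0.08 for FOS, -0.52 to 0.19 for NR4A3 and -0.031 to 0.24 for PDK4. The causes were not tested. No paired analysis was possible because replicate numbers only name pigs in order and pair none between batches. Genes such as LYZ, CD180 and THSD7B have few counts, which limits them.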
